A study of Mus musculus with 8 samples.

Results

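Liver X receptor (LXR) targets and cholesterol efflux genes were examined in cultured mouse hepatic macrophages: the receptors *Nr1h3* (LXRα) and *Nr1h2* (LXRβ), the exporters *Abca1* and *Abcg1*, the lipoprotein genes *Apoe* and *Pltp*, *Mylip*, and the lipid genes *Srebf1*, *Lpcat3* and *Scd2*. These 10 genes were chosen by symbol and were 10 of the 55401 genes in the count table, and 10 of the 15202 genes with enough counts to be tested. The data are 8 RNA-seq libraries of poly(A) RNA that make up 4 groups of 2. Macrophages were pulled from the livers with an antibody to F4/80 and magnetic beads, plated on collagen in RPMI with serum, and given vehicle (Veh) or cholesterol crystals (CC, 500 μg/ml) for 24 h. Normal livers came from wild-type C57BL/6J mice on a standard diet, and steatotic livers from mice of the same background with *Mc4r*, a melanocortin receptor, disrupted in the whole body (MC4R-KO) that had 6 to 10 wk of Western diet, so that genotype and diet cannot be told apart. The methods give male mice that started Western diet at 8 wk of age, though not for these cultures in particular. Whether the 2 libraries of a group came from separate animals or from pools is not given in the sources used here, so the p-values below measure the spread between these libraries only.

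LXRα and LXRβ are nuclear receptors that bind oxysterols and desmosterol, pair with retinoid X receptors (RXR) and switch on genes that move cholesterol out of the cell. In macrophages their best known targets are *Abca1* and *Abcg1*, which load cholesterol onto apolipoprotein A-I and high-density lipoprotein, and they also drive a lipogenic branch through *Srebf1*. The sterol-sensing factor SREBP-2 works in the opposite sense, raising cholesterol synthesis and uptake when sterol in the endoplasmic reticulum is low.

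LXR and RXR bind a direct repeat with a spacer of 4 bases, called DR4, and such elements are known upstream of *Abca1* and *Srebf1*. The repeat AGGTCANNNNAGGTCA was searched on both strands of the 13 RefSeq promoters (GRCm38.p6, 250 bases before to 50 after each start) that the reference table held for 8 of the 10 genes, all but *Abcg1* and *Scd2*. With up to 2 mismatches in the 12 half-site bases, 0 of the 13 promoters had a match, against 3.02% of all 32851 promoters in the table. With up to 3 mismatches, 2 of the 13 had one (15.4%, against 21.9% of all promoters and 18.1% of those of tested genes), so the share in these genes was not above that in all genes. The sequence before each of the 2 start sites is shown because the genes it precedes both rose with CC in the results that follow. Each is read 5′ to 3′ on the minus strand, which the genes use, and capitals mark the match, which lies on the opposite strand.
Abca1 (chr4:53159896-53160145): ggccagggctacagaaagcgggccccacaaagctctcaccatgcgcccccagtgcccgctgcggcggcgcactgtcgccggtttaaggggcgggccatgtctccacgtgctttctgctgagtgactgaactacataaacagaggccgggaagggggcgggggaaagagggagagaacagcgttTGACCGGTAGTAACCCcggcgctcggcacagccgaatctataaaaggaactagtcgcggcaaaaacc
Srebf1 (chr11:60210472-60210721): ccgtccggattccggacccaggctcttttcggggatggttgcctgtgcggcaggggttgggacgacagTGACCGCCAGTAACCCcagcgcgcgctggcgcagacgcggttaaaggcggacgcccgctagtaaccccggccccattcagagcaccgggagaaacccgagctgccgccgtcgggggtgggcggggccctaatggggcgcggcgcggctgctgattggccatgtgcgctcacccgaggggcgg
The *Abca1* match spans bases -67 to -52 from the start and reads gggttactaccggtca on the strand of the repeat. The *Srebf1* match precedes a start inside the gene, spans bases -182 to -167 and reads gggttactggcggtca. The 2 matches were identical at 14 of 16 bases, and both carried the same substitutions against the repeat, A1G, C5T and A11C, counted from the first base of the repeat.

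Levels are given as CPM (counts scaled to a fixed library total), scaled between libraries by the trimmed mean of M-values (TMM). Total counts were 58668655 to 74529462 per library and the correlation of log2 CPM between replicates was 0.979 to 0.982. *Mc4r* itself ran against its label, with 0 counts in the 4 libraries labelled normal and 28 and 22 counts (steatotic Veh) and 53 and 72 counts (steatotic CC) in those labelled steatotic, or 0.301 to 0.983 CPM. Which part of the gene is disrupted is not given in the sources used here, so reads from a disrupted allele and exchanged labels cannot be told apart by this gene, and directions between livers below rest on the labels. *Spp1* (osteopontin) ranged from 9.69 to 19.9 CPM over the normal label and from 51.2 to 346 CPM over the steatotic label, and *Ly6c2*, a monocyte marker, 2.75 to 4.98 and 24.8 to 35.3 CPM. Each library labelled steatotic lay above each labelled normal for both genes. Macrophage identity was plain, with 6 of 6 pan-macrophage markers tested and a summed level of 10026 to 15541 CPM. The summed level of 10 hepatocyte markers was between 52.8 and 62.8 CPM where the label was normal and between 5.73 and 7.49 CPM where it was steatotic, and that of 8 sinusoidal endothelial markers was 80.4 to 92.5 and 147 to 180 CPM. In such bulk samples, fewer cells of a type and less RNA per cell cannot be told apart.

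The 10 genes spanned a wide range of levels, which can be compared between genes only per kb of exon (GENCODE M21). In macrophages labelled normal Veh, *Apoe*, the apolipoprotein that macrophages secrete with cholesterol, stood at 1394 ± 38.9 CPM per kb (SD, n = 2). *Pltp*, phospholipid transfer protein, followed at 170 ± 2.13 CPM per kb, and *Nr1h3*, *Abcg1* and *Abca1* at 65.8 ± 2.50, 53.8 ± 0.188 and 31.2 ± 2.72 CPM per kb. *Mylip*, *Lpcat3* and *Nr1h2* lay between 19.6 and 25.1 CPM per kb, the last 2 within their spread of each other, and *Srebf1* (10.3) and *Scd2* (2.30) were lowest. In macrophages labelled steatotic CC the exporters had moved past the receptor: *Abcg1* stood at 149 ± 4.65 and *Abca1* at 122 ± 1.72 CPM per kb, above *Nr1h3* at 68.8 ± 1.64. LXRα RNA exceeded LXRβ RNA per kb in all 4 groups, by 3.36 times in normal Veh, 2.85 in normal CC, 4.0 in steatotic Veh and 3.44 in steatotic CC.

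**Figure D1:**
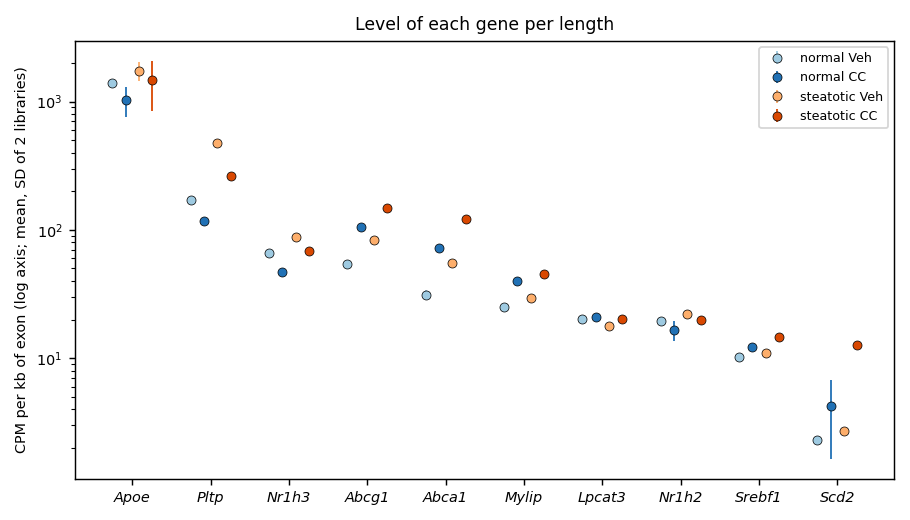
Mean level of each gene per kb of exon (vertical log axis, CPM per kb) in the 4 groups, with the SD of 2 libraries as bars. Genes run from highest to lowest in normal Veh, from *Apoe* at 1394 to *Scd2* at 2.30 CPM per kb.

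Replicates lay close together for most of these genes. In 7 of the 10, the higher replicate exceeded the lower by at most 1.13 times in every group. The exceptions were *Apoe*, whose replicates differed by 1.85 times in steatotic CC and 1.46 times in normal CC, *Scd2*, 2.52 times in normal CC, and *Nr1h2*, 1.28 times in normal CC.

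**Figure D2:**
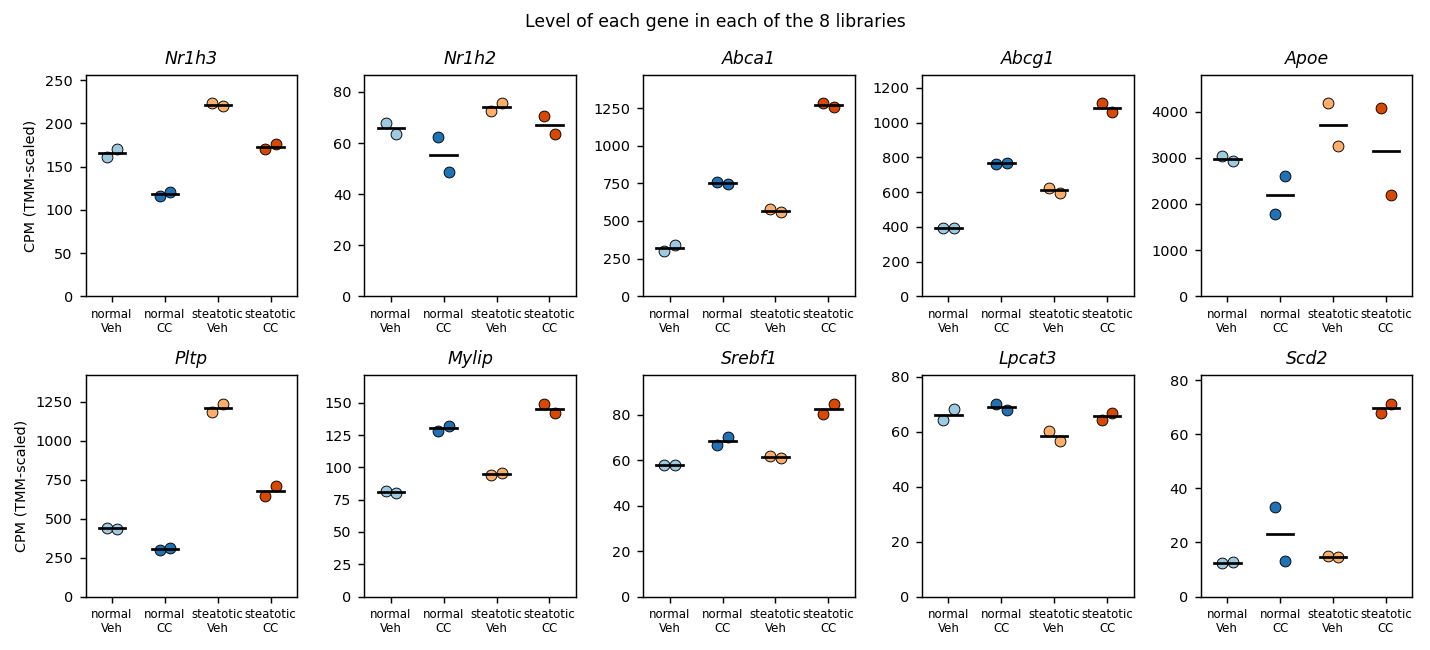
Level of each of the 10 genes (vertical axis, TMM-scaled CPM from 0) in each library of the 4 groups, with the mean of 2 libraries as a bar. *Abca1*, *Abcg1*, *Mylip* and *Srebf1* share 1 order of groups, lowest in normal Veh and highest in steatotic CC, whereas *Nr1h3* and *Pltp* are lowest in normal CC and highest in steatotic Veh.

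The first question was how macrophages labelled steatotic differed from those labelled normal before any crystals were added. Of the 10 genes, 5 were higher (*Abca1*, *Abcg1*, *Mylip*, *Nr1h3* and *Pltp*) and 1 lower (*Lpcat3*) by edgeR's quasi-likelihood test, called at an adjusted p under 0.05 with Benjamini-Hochberg adjustment over 15202 genes. Of all genes tested, 16.4% were called higher and 14.3% lower. The median log2 fold change was 0.28 over the 10 genes and -0.01 over all genes tested.

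*Nr1h3* (chr2:91184061-91202834, minus strand, GRCm38), the LXR subtype that is abundant in macrophages, had 161 and 170 CPM in normal Veh and 223 and 220 CPM in steatotic Veh. It was 1.34-fold higher (log2 fold change 0.42 ± 0.04, SE; edgeR adjusted p = 0.000316). *Nr1h2* (chr7:44549616-44553951, minus), the more widely expressed subtype, had 68.0 and 63.5 CPM and 72.4 and 75.5 CPM in the same groups. Its groups did not overlap, but its log2 difference of 0.17 was not called (95% confidence interval -0.11 to 0.45, edgeR adjusted p = 0.333).

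*Abca1* (chr4:53030787-53159895, minus), the exporter that lipidates apolipoprotein A-I, had 303 and 343 CPM in normal Veh and 579 and 560 CPM in steatotic Veh. The groups lay far apart, a 1.76-fold difference (log2 0.82 ± 0.06, edgeR adjusted p = 3.56e-05). *Abcg1* (chr17:31057675-31117988, plus), which passes cholesterol to high-density lipoprotein, had 392 and 394 CPM against 626 and 594 CPM. It was 1.55-fold higher (log2 0.63 ± 0.04, edgeR adjusted p = 1.90e-05).

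*Pltp* (chr2:164839518-164857711, minus), which remodels high-density lipoprotein, showed the largest difference of the 10 genes. It had 441 and 433 CPM in normal Veh and 1182 and 1237 CPM in steatotic Veh, 2.77-fold higher (log2 1.47 ± 0.05, edgeR adjusted p = 1.65e-06). *Pltp* shares 495 exon bases, 19.3% of its exon length, with *Ctsa* on the other strand, and although the library kit keeps strand, the strand setting of the counting is not given in the sources used here. *Ctsa* moved the other way, with a log2 fold change of -0.80 in the same comparison (edgeR adjusted p = 4.98e-06). *Apoe* (chr7:19696109-19699188, minus) had 3039 and 2922 CPM in normal Veh and 4180 and 3260 CPM in steatotic Veh. Its log2 difference of 0.32 had an interval from -0.65 to 1.29 and was not called (edgeR adjusted p = 0.578).

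*Mylip* (chr13:45389742-45412022, plus), a ubiquitin ligase induced by LXR, had 81.5 and 80.6 CPM in normal Veh and 94.0 and 95.6 CPM in steatotic Veh. The difference was small but larger than the spread (1.17-fold, log2 0.23 ± 0.04, edgeR adjusted p = 0.00643). *Srebf1* (chr11:60199089-60222581, minus), which encodes the lipogenic factors SREBP-1a and SREBP-1c counted here together, had 57.9 and 58.1 CPM against 61.7 and 61.0 CPM and was not called (log2 0.08, edgeR adjusted p = 0.287). *Lpcat3* (chr6:124663027-124704418, plus), which puts polyunsaturated chains into phospholipids, had 64.2 and 68.1 CPM against 60.2 and 56.7 CPM. It was lower by a narrow margin (log2 -0.18 ± 0.06, edgeR adjusted p = 0.0456), and the call was lost whichever of the 8 libraries was left out, with adjusted p from 0.0526 to 0.218. The *Lpcat3* call was also lost under DESeq2, when genes with any count were tested and on the 4 Veh libraries alone. *Lpcat3* shares 10.2% of its exon length with *Emg1* on the other strand. *Scd2* (chr19:44293674-44306864, plus), a stearoyl-CoA desaturase with near copies in the genome, had 12.4 and 12.7 CPM against 14.9 and 14.6 CPM. It was not called (log2 0.23, edgeR adjusted p = 0.734). Without normal CC replicate 1 or replicate 2 the log2 value was 0.23 in both. Those 2 libraries disagreed for *Scd2*, and leaving out 1 takes the disagreement out of the spread, so calls gained that way are not given here.

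**Figure D3:**
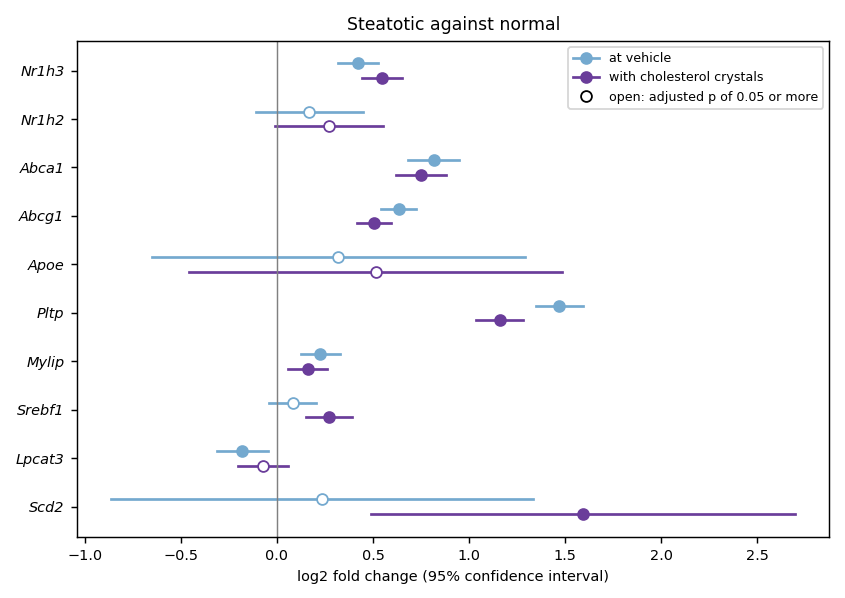
Log2 fold change of steatotic against normal (horizontal axis) for the 10 genes, at Veh and with CC, with 95% confidence intervals as lines and open points where the adjusted p was 0.05 or more. *Pltp* stands farthest to the right of the genes with short intervals, at 1.47 with Veh and 1.16 with CC, and the intervals of *Apoe* and *Scd2* are the widest.

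The next question was how macrophages of each label responded to CC. In those labelled normal, 4 of the 10 genes rose (*Abca1*, *Abcg1*, *Mylip* and *Srebf1*) and 2 fell (*Nr1h3* and *Pltp*), where 6.27% of all genes tested were called higher and 5.54% lower. In those labelled steatotic, 5 rose (the same 4 and *Scd2*) and 2 fell (*Nr1h3* and *Pltp*), where 12% of all genes tested were called higher and 10.9% lower. The median log2 fold change of the 10 genes was 0.15 in normal and 0.30 in steatotic, and it was 0.00 over all genes tested in both. The normal Veh libraries are the control of the first response and also the baseline of the steatotic difference above, and likewise the steatotic Veh libraries serve in both, so these comparisons are not independent.

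*Abca1*, whose upstream sequence is printed above, had 761 and 747 CPM in normal CC and 1281 and 1255 CPM in steatotic CC, far above the Veh libraries of its own label. It rose 2.33-fold in normal (log2 1.22 ± 0.06, edgeR adjusted p = 3.22e-05) and 2.23-fold in steatotic (log2 1.16 ± 0.06, edgeR adjusted p = 1.02e-05). *Abcg1* had 764 and 766 CPM in normal CC and 1111 and 1063 CPM in steatotic CC. It rose 1.95-fold in normal (log2 0.96 ± 0.04, edgeR adjusted p = 2.71e-05) and 1.78-fold in steatotic (log2 0.83 ± 0.04, edgeR adjusted p = 7.68e-06). The mean in steatotic CC stood at 3.92 times that of normal Veh for *Abca1* and 2.77 times for *Abcg1*.

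The receptor *Nr1h3* went the other way. It had 116 and 121 CPM in normal CC and 170 and 176 CPM in steatotic CC, below the Veh libraries of the same label in both. The fall was 1.40-fold in normal (log2 -0.48 ± 0.04, edgeR adjusted p = 0.000553) and 1.28-fold in steatotic (log2 -0.36 ± 0.04, edgeR adjusted p = 0.000971), and the mean in steatotic CC was 1.05 times that of normal Veh. *Nr1h2* had 62.3 and 48.5 CPM in normal CC and 70.6 and 63.4 CPM in steatotic CC, with log2 differences of -0.25 (95% confidence interval -0.53 to 0.03) and -0.14 (-0.42 to 0.14) that were not called (edgeR adjusted p = 0.255 and 0.463). Without normal CC replicate 1, which held the higher value, the log2 response in normal was -0.44.

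*Pltp* had 296 and 310 CPM in normal CC and 644 and 709 CPM in steatotic CC. It fell 1.44-fold in normal (log2 -0.53 ± 0.05, edgeR adjusted p = 0.000730) and 1.79-fold in steatotic (log2 -0.84 ± 0.05, edgeR adjusted p = 2.95e-05), yet each steatotic CC library stayed above each library labelled normal. Its antisense neighbour *Ctsa* had log2 fold changes of 0.06 (not called, edgeR adjusted p = 0.399) and 0.17 (edgeR adjusted p = 0.0132) in the same comparisons. *Apoe* had 1785 and 2610 CPM in normal CC and 4074 and 2204 CPM in steatotic CC. With log2 differences of -0.44 (-1.41 to 0.53) and -0.24 (-1.21 to 0.72), neither response was called (edgeR adjusted p = 0.545 and 0.713), and without steatotic CC replicate 2 the second turned to 0.13.

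*Mylip* had 128 and 132 CPM in normal CC and 149 and 142 CPM in steatotic CC. It rose 1.61-fold (log2 0.69 ± 0.04, edgeR adjusted p = 0.000109) and 1.54-fold (log2 0.62 ± 0.04, edgeR adjusted p = 5.59e-05) in normal and steatotic. *Srebf1*, whose upstream sequence is also printed above, had 66.5 and 70.4 CPM in normal CC and 80.2 and 84.9 CPM in steatotic CC. Its rise was smaller, 1.18-fold in normal (log2 0.24 ± 0.05, edgeR adjusted p = 0.0239) and 1.34-fold in steatotic (log2 0.43 ± 0.05, edgeR adjusted p = 0.000821). The call in normal was lost whichever of the 4 libraries labelled normal was left out, with adjusted p from 0.0505 to 0.129.

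*Lpcat3* had 70.2 and 67.8 CPM in normal CC and 64.4 and 66.9 CPM in steatotic CC, and neither response was called (log2 0.06 and 0.17, edgeR adjusted p = 0.573 and 0.0704). *Scd2* had 33.1 and 13.1 CPM in normal CC and 68.1 and 71.3 CPM in steatotic CC. The normal CC libraries disagreed with each other, 1 lying near the Veh libraries, whereas both steatotic CC libraries stood far above every other library. The rise was called in steatotic (4.72-fold, log2 2.24 ± 0.44, edgeR adjusted p = 0.0221) and not in normal (log2 0.88 ± 0.43, edgeR adjusted p = 0.290). The steatotic call was lost when any of the 6 libraries other than the normal CC pair was left out, with adjusted p from 0.0551 to 0.127 and the log2 value between 2.21 and 2.27. The normal response was 0.06 without normal CC replicate 1 and 1.40 without replicate 2, so it rested on 1 library.

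**Figure D4:**
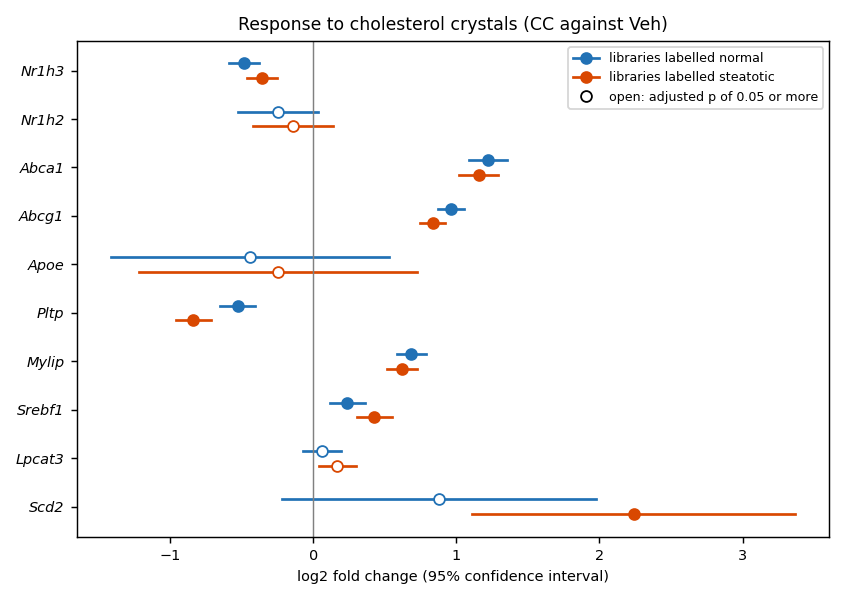
Log2 fold change of CC against Veh (horizontal axis) for the 10 genes in libraries labelled normal and steatotic, with 95% confidence intervals as lines and open points where the adjusted p was 0.05 or more. *Abca1*, *Abcg1* and *Mylip* lie to the right of 0 and *Nr1h3* and *Pltp* to the left of 0 in both, the 2 points of *Pltp* lying farther apart (-0.53 and -0.84) than those of *Abca1* (1.22 and 1.16).

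Whether the 2 responses differed was tested as an interaction, steatotic minus normal on the log2 scale. A higher or lower response gives the sign of that difference, so for a gene that fell a lower response is a larger fall. By edgeR, 0 of the 10 genes were called, 3 had an unadjusted p under 0.05 (*Abcg1*, *Pltp* and *Srebf1*), as did 14.2% of all genes tested (7.94% with a higher and 6.26% with a lower response in steatotic), and of all genes 1.95% were called with a higher and 1.27% with a lower response in steatotic. For *Abca1* the difference between responses was -0.07 on the log2 scale with a 95% confidence interval of -0.25 to 0.12, and for *Mylip* -0.07 (-0.21 to 0.08), so a larger difference in either direction lies outside these intervals. *Abcg1* gave -0.13 (-0.25 to -0.00101), *Srebf1* 0.19 (0.02 to 0.36) and *Nr1h3* 0.13 (-0.02 to 0.27), with edgeR adjusted p of 0.347, 0.296 and 0.443. *Lpcat3* (0.11, -0.08 to 0.29), *Nr1h2* (0.10, -0.29 to 0.50) and *Apoe* (0.19, -1.17 to 1.56) were not called either (edgeR adjusted p = 0.628, 0.855 and 0.923).

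*Pltp* came closest, with a log2 difference of -0.31 (-0.48 to -0.14, edgeR adjusted p = 0.0766), and it was called by DESeq2 (adjusted p = 0.0379), which called 1 of the 10 genes. Without steatotic CC replicate 2 the log2 difference of *Pltp* was -0.38. For *Scd2* the difference was 1.36 with an interval from -0.18 to 2.90 (edgeR adjusted p = 0.411). The *Scd2* difference was 2.18 without normal CC replicate 1 and 0.84 without replicate 2.

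With CC, 7 of the 10 genes were higher in macrophages labelled steatotic and 0 were lower by edgeR (0 also at an unadjusted p under 0.05, and 0 by DESeq2), where 15.9% of all genes tested were called higher and 12.9% lower. The median log2 fold change was 0.51 over the 10 genes and 0.00 over all genes tested. *Abca1* was 1.68-fold higher (log2 0.75 ± 0.06, edgeR adjusted p = 6.41e-05), *Abcg1* 1.42-fold (log2 0.51 ± 0.04, edgeR adjusted p = 6.51e-05) and *Nr1h3* 1.46-fold (log2 0.55 ± 0.04, edgeR adjusted p = 0.000100). *Pltp* was 2.23-fold higher (log2 1.16 ± 0.05, edgeR adjusted p = 4.72e-06) and *Srebf1* 1.21-fold (log2 0.27 ± 0.05, edgeR adjusted p = 0.00661).

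The remaining calls with CC were near the threshold. *Mylip* differed by 1.12-fold (log2 0.16 ± 0.04, edgeR adjusted p = 0.0292), and this call was lost without normal CC replicate 1 or 2, steatotic Veh replicate 1 or steatotic CC replicate 1, with adjusted p from 0.0587 to 0.146. DESeq2 did not call it either (adjusted p = 0.0722), nor did edgeR without TMM (0.0532) or on the 4 CC libraries alone (0.0764). *Scd2* differed by 3.02-fold (log2 1.59 ± 0.43, edgeR adjusted p = 0.0487), and its call was lost when any of the 6 libraries other than the normal CC pair was left out, with adjusted p from 0.0970 to 0.149. The value was 2.41 without normal CC replicate 1 and 1.08 without replicate 2. On the 4 CC libraries alone it was not called (edgeR adjusted p = 0.206). With the replicate number as a block, the *Scd2* call was also lost (adjusted p = 0.0598), as was that of *Lpcat3* at Veh (adjusted p = 0.0702). *Apoe* (log2 0.51, -0.46 to 1.49), *Nr1h2* (0.27, -0.01 to 0.55) and *Lpcat3* (-0.07, -0.20 to 0.06) were not called. The *Apoe* value rested on single libraries, at 0.00470 without steatotic CC replicate 1, 0.89 without replicate 2, 0.27 without normal CC replicate 1 and 0.81 without replicate 2. The *Nr1h2* value was 0.46 without normal CC replicate 1.

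By the order of the 4 groups the genes fell into a few patterns. In 6 of the 10 no neighbouring groups overlapped, against 17.6% of all genes tested. *Abca1*, *Abcg1*, *Mylip* and *Srebf1* rose in the order normal Veh, steatotic Veh, normal CC, steatotic CC, each without overlap, although *Srebf1* was not called between the Veh groups. *Scd2* had the same order of means with an overlap of steatotic Veh and normal CC. *Nr1h3* and *Pltp* had the order normal CC, normal Veh, steatotic CC, steatotic Veh, again without overlap. *Nr1h2* and *Apoe* had that order of means too, but their neighbouring groups overlapped and neither was called in any comparison. *Lpcat3* had an order of its own, steatotic Veh, steatotic CC, normal Veh, normal CC, with normal Veh overlapping both of its neighbours.

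Over the 8 libraries, the 5 genes most like *Abca1* among 9020 genes with a mean log2 CPM above 3 were *Abcg1* (Pearson's r = 0.997 of log2 CPM), *Arl4c* (0.996), *Tes* (0.995), *Chst11* (0.994) and *Mocos* (0.992). *Mylip* ranked 91 (r = 0.952), *Srebf1* 112 (0.945) and *Scd2* 371 (0.863), while *Nr1h3* had r = -0.13. The 5 most like *Nr1h3* were *Pnp* (0.997), *Rnf150* (0.995), *Naaa* (0.994), *Cfp* (0.994) and *Neurl3* (0.993), and *Pltp* ranked 230 (0.949). The 8 points are 4 groups of 2, so these values describe the order of the groups and carry no test.

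Other genes of the pathway were counted from lists chosen with earlier results known. Over all genes tested, the shares called higher and lower were 16.4% and 14.3% in steatotic at Veh, 6.27% and 5.54% with CC in normal, and 12% and 10.9% with CC in steatotic. Of 11 tested LXR targets outside the 10 genes, 6 were higher and 1 lower in steatotic at Veh, 3 rose and 3 fell with CC in normal, and 3 rose and 6 fell with CC in steatotic. *Arl4c*, an LXR-induced small GTPase, rose with CC by 0.61 and 0.57 on the log2 scale in normal and steatotic (edgeR adjusted p = 0.000132 and 6.47e-05). *Smpdl3a*, a nucleotide phosphodiesterase, fell by 0.55 and 0.90 (edgeR adjusted p = 0.000268 and 9.72e-06), and *Mertk*, the receptor for dying cells, fell by 0.47 and 0.52 (edgeR adjusted p = 0.000730 and 0.000186). At Veh, *Apoc2*, the activator of lipoprotein lipase, was higher in steatotic by 1.25 (edgeR adjusted p = 7.99e-05), and lipoprotein lipase itself, *Lpl*, lower by 0.74 (log2 -0.74, edgeR adjusted p = 4.05e-05). *Apoc1* fell with CC in steatotic (log2 -1.02, edgeR adjusted p = 0.0132), as did *Apoc2* (log2 -0.58, edgeR adjusted p = 0.00489). In the interaction test 1 of the 11 had a higher response in steatotic (*Npc2*, log2 0.23, edgeR adjusted p = 0.0434) and 2 a lower one (*Tgm2*, -0.42, edgeR adjusted p = 0.00576, and *Smpdl3a*, -0.35, edgeR adjusted p = 0.0265). For *Smpdl3a* this was a larger fall. Of all genes tested, 1.95% had a higher and 1.27% a lower response, and DESeq2 called 0 and 2 of the 11.

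Of 11 tested fatty acid synthesis genes driven by SREBP-1c, 2 rose and 1 fell with CC in normal (6.27% and 5.54% of all genes), and 4 rose and 2 fell in steatotic (12% and 10.9% of all genes), so the counts that fell were near the background. In steatotic against normal, 0 were higher (1 at an unadjusted p under 0.05) and 2 lower at Veh (16.4% and 14.3% of all genes). With CC 2 were higher and 4 lower (15.9% and 12.9%). The list medians were -0.10 and -0.15. The 2 lower at Veh and the 2 higher with CC lay near the background. *Scd1*, the main stearoyl-CoA desaturase, had 27.3 and 24.0 CPM in normal Veh, 60.7 and 57.0 in normal CC, 23.5 and 23.4 in steatotic Veh, and 103 and 101 in steatotic CC. It rose by 1.20 and 2.12 on the log2 scale (edgeR adjusted p = 9.12e-05 and 2.92e-06), and its response was higher in steatotic by 0.92 (edgeR adjusted p = 0.00510). *Scd2*, as given above, was called in steatotic only, and its difference between the responses was not called. *Fasn*, fatty acid synthase, rose by 0.46 and 0.53 (edgeR adjusted p = 0.0354 and 0.0116), whereas the desaturase *Fads1* fell by 0.44 and 1.05 (edgeR adjusted p = 0.00359 and 2.44e-05).

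Of 12 tested RXR and coregulator genes, 1 fell with CC in normal (*Tbl1x*, log2 -0.23, edgeR adjusted p = 0.0205) and 6 fell in steatotic, by at most 0.51. Of all genes tested, 5.54% and 10.9% fell, so the count in normal was near the background. By edgeR and by DESeq2 0 rose in either label, and at an unadjusted p under 0.05 the counts that rose were 1 and 0. *Tbl1x*, a corepressor subunit, had log2 -0.51 and *Rxrb* -0.50 there (edgeR adjusted p = 0.000243 and 0.00467). In the interaction test 0 of the 12 were called by edgeR or DESeq2 and 2 had an unadjusted p under 0.05, near the 14.2% of all genes tested, so the 2 responses were not shown to differ. At Veh, 4 were higher in steatotic, among them *Ncoa1* (log2 0.45, edgeR adjusted p = 0.00109), and 1 was lower. Of all genes tested, 16.4% were higher and 14.3% lower there, so the count of 1 lay near the background, and DESeq2 called 4 and 0.

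Of 9 tested oxysterol and other efflux genes, 2 fell and 0 rose with CC in normal by edgeR (0 also at an unadjusted p under 0.05 and by DESeq2), and 2 rose and 3 fell in steatotic. Of all genes tested, 6.27% rose and 5.54% fell in normal, and 12% and 10.9% in steatotic. *Cyp27a1*, which makes the LXR ligand 27-hydroxycholesterol, fell by 0.87 and 1.03 on the log2 scale (edgeR adjusted p = 0.00120 and 0.000223). *Scarb1*, the receptor for high-density lipoprotein, fell by 0.34 and 0.87 (edgeR adjusted p = 0.00572 and 2.75e-05). Its fall was larger in steatotic by the interaction test (log2 -0.52, edgeR adjusted p = 0.0117). *Ch25h*, which makes another oxysterol, fell with CC in steatotic (log2 -0.56, edgeR adjusted p = 0.0430).

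Of 19 tested SREBP-2 targets, 11 were lower in steatotic at Veh, 9 fell with CC in normal, and 1 rose and 6 fell with CC in steatotic. Of all genes tested, 14.3%, 5.54% and 10.9% were lower in these comparisons, and 12% rose in the last. In the first 2 of these comparisons 0 were higher by edgeR, by DESeq2 or at an unadjusted p under 0.05. The median log2 fold change of the list was -0.49, -0.40 and -0.18 in these comparisons, against -0.01, -0.00 and 0 over all genes tested. *Cyp51* and *Fdps*, enzymes of cholesterol synthesis, fell with CC in normal (log2 -1.14 and -0.83, edgeR adjusted p = 0.00255 and 0.000934). In the interaction test 0 of the 19 were called by edgeR or DESeq2 (of all genes, edgeR called 1.95% higher and 1.27% lower). At an unadjusted p under 0.05, 10 had a positive log2 difference, steatotic minus normal, against 7.94% of all genes tested. With list medians of -0.40 in normal and -0.18 in steatotic, a positive difference here is in the direction of a smaller fall in steatotic.

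**Figure D5:**
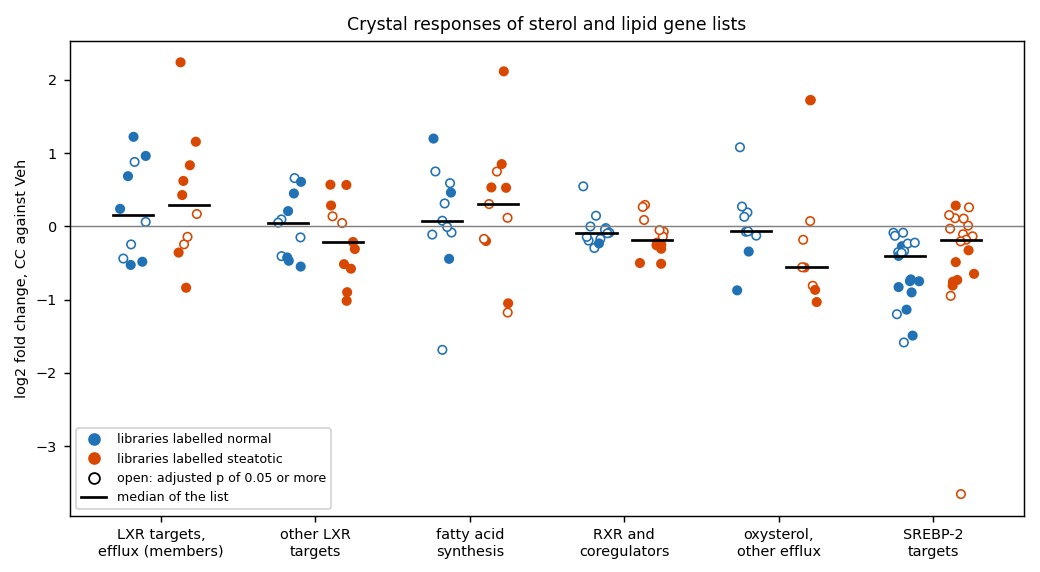
Log2 fold change of CC against Veh (vertical axis) for the tested genes of 6 lists, in libraries labelled normal and steatotic, with open points where the adjusted p was 0.05 or more and the median of each list as a bar. The 10 genes described here have medians of 0.15 and 0.30, and the SREBP-2 targets medians of -0.40 and -0.18.

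Markers of cell types moved with some of these groups. Of 6 pan-macrophage markers, 5 fell and 0 rose with CC in normal (median log2 -0.35), and 4 fell and 1 rose in steatotic (median -0.33). Their sum was 15126 to 15541 CPM in normal Veh, 12419 to 12582 in normal CC, 11435 to 11601 in steatotic Veh and 10026 to 10864 in steatotic CC. In steatotic against normal 3 were higher and 2 lower with each treatment. Shares of all genes tested are given below. The summed level of 9 Kupffer cell markers was 3191 to 3262 CPM in normal Veh, 2566 to 2775 in normal CC, 4694 to 4733 in steatotic Veh and 3145 to 3689 in steatotic CC, higher in steatotic and lower with CC as *Nr1h3* and *Pltp* were. *Cd5l*, which is also an LXR target, made up 58.4% to 74.7% of that sum, and the markers did not move as 1: at Veh 4 of the 9 were higher and 2 lower in steatotic, and with CC 4 fell in normal and 1 rose and 6 fell in steatotic. The shares of all genes tested were 16.4% higher and 14.3% lower at Veh, 5.54% lower with CC in normal, and 12% higher and 10.9% lower with CC in steatotic. By count, the 2 Kupffer cell markers lower at Veh and the 1 that rose lay near the background. Yet *Marco* had the largest change among the called markers at Veh and was lower in steatotic. It had 348 and 366 CPM in normal Veh and 95.9 and 91.0 CPM in steatotic Veh. *Clec4f* was also lower there, at 130 and 133 CPM against 88.9 and 96.8 CPM. Of 8 sinusoidal endothelial markers, 7 were tested, of which 3 were higher and 1 lower in steatotic at Veh and 4 were higher in steatotic with CC (15.9% of all genes tested), as the exporters were. In response to CC, 1 of the 7 rose in normal (6.27% of all genes tested), and 3 rose and 1 fell in steatotic (12% and 10.9%), so the counts of 1 lay near the background. Hepatocyte markers, which include *Apoa1* from the efflux list, were lower in steatotic at Veh for 5 of 8 tested. With CC 5 were lower and 1 higher in steatotic (12.9% and 15.9% of all genes tested). *Apob* went against the sum, with 1.28 and 2.15 CPM in normal CC and 4.26 and 2.96 CPM in steatotic CC. In response to CC 0 of the 8 were called by edgeR or DESeq2 in either label (0 in normal and 1 in steatotic at an unadjusted p under 0.05). The part of these cells in the levels of the exporters, *Nr1h3*, *Pltp* and *Apoe* was not tested.

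The stellate cell, cholangiocyte and T and NK cell sums rested largely on single genes in steatotic CC. The stellate cell and fibroblast sum was 4.23 to 4.49 CPM in normal Veh, 8.29 to 9.85 in normal CC, 19.0 to 22.9 in steatotic Veh and 111 to 140 in steatotic CC, where *Dcn* made up 98.6%. The cholangiocyte sum was 17.4 to 18.1, 27.3 to 28.4, 61.2 to 69.5 and 333 to 360 CPM in the same order, with *Spp1* at 96.4% of the last. Both were thus higher with CC in each label and higher in steatotic with each treatment. The T and NK cell sum was 163 to 168 CPM in normal Veh, 335 to 344 in normal CC, 171 to 182 in steatotic Veh and 580 to 658 in steatotic CC, where *Il7r* made up 98.3%. Of the 8 T and NK cell markers, *Il7r* included, 6 were higher in steatotic at Veh (median log2 3.02) and 8 with CC (median 3.56), as *Abca1*, *Abcg1*, *Nr1h3* and *Pltp* were. Of all genes tested, 16.4% and 15.9% were higher in these comparisons. With CC against Veh *Il7r* was the 1 marker called in each label. The sum of 10 recruited monocyte and macrophage markers, of which *Gpnmb* was 84.9% to 94.9%, was 7610 to 7959 CPM in normal Veh, 9555 to 9698 in normal CC, 5264 to 5370 in steatotic Veh and 9062 to 9404 in steatotic CC, and so followed 1 gene. Most of the list went the other way between the labels. At Veh 6 of the 10 were higher and 1 lower in steatotic (median log2 1.88), led by *Ly6c2* (log2 2.92, edgeR adjusted p = 3.48e-05) and *S100a4* (log2 2.27, edgeR adjusted p = 1.65e-06). With CC the counts were again 6 and 1 (median 1.76). Of all genes tested, 16.4% were higher and 14.3% lower at Veh, and 15.9% and 12.9% with CC, so the 1 lower lay near the background. In response to CC, 2 rose and 2 fell in normal, and 2 rose and 3 fell in steatotic. Of all genes tested, 6.27% rose and 5.54% fell in normal, and 12% and 10.9% in steatotic, so the 2 that rose in steatotic lay near the background. The part of these cells in the levels of the 10 genes was not tested. The neutrophil sum, led by *Csf3r*, was 87.9 to 89.0 CPM in normal Veh, 74.1 to 76.0 in normal CC, 156 to 161 in steatotic Veh and 147 to 149 in steatotic CC. That is the order of *Nr1h3* and *Pltp*, and a link was not tested. The dendritic cell sum was 5.41 to 10.7 CPM and the B cell sum 1.23 to 3.03 CPM over the 8 libraries. The dendritic cell sum was lowest in normal Veh (5.41 to 5.66 CPM) and the B cell sum in steatotic CC (1.23 to 1.5 CPM). The neutrophil-defining *Ly6g* was at 0 in all 8 libraries.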

How the data were processed

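Per the labels and the study's methods, fastp trimmed the 150 bp paired-end reads, HISAT2 mapped them (mm10) and StringTie quantified genes, with versions not given in the sources used here. The authors deposited estimated counts per gene. Of values from 1 to 20, 35.0% to 36.5% were multiples of 4, against 23.9% to 27.0% of values from 100 to 1000, so low counts may carry less information than their size implies, and counts divided by 4 were tried as an alternative.

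Libraries were grouped by their labels. The 15202 genes reaching 0.5 CPM in 1 or more libraries were tested with edgeR 4.0.16 in R 4.3.3 (robust glmQLFit and glmQLFTest, TMM scaling, 4 group means, common biological coefficient of variation 0.171), with DESeq2 1.42.0 as an alternative. P-values were adjusted by Benjamini-Hochberg over all tested genes. The code was tested on simulated data. The 10 genes, the pathway and marker lists and the search motif were chosen with earlier results of these data known. All 10 genes were named in every comparison. From each list and comparison, up to 3 called genes of largest fold change with a mean log2 CPM above 3 could be named. Coordinates are from GENCODE M21 (GRCm38, the same assembly as mm10), which held all 10 identifiers. Confidence intervals are 95% and come with the SE from the same fit. A few genes of the pathway lists are not reported here and were left out of the counts and medians of their lists.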

Additional observations from a re-analysis of the deposited data

Results flagged for a closer look

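Of 62 tested genes of the surrounding pathways, 6 were flagged because an interaction term in edgeR separated the response to CC in macrophages labelled steatotic from that in macrophages labelled normal, 2 with a higher and 4 with a lower response in steatotic, where 1.95% and 1.27% of all genes tested were called. Of the 10 genes 0 were called by edgeR (3 at an unadjusted p under 0.05, as for 14.2% of all genes, and 1 by DESeq2), and whether this share differs from that of the 62 was not tested. *Scd1*, the desaturase related to *Scd2*, differed by 0.92 and *Npc2*, which carries cholesterol out of lysosomes, by 0.23, both higher in steatotic. Negative differences were found for *Fads1* (log2 -0.61), *Scarb1* (-0.52), *Tgm2* (-0.42) and *Smpdl3a* (-0.35). Of these, *Fads1*, *Scarb1* and *Smpdl3a* fell with CC in both labels and fell further in steatotic. *Tgm2*, transglutaminase 2, rose in normal (log2 0.21, edgeR adjusted p = 0.00847) and fell in steatotic (log2 -0.21, edgeR adjusted p = 0.00373).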

How the results depend on the processing

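The counts of called genes among the 10 kept within 1.5 times under each setting tried, except for the difference between the responses. That count was 0, became 1 under DESeq2 and 1 when genes with any count were tested (*Pltp* in both), and ranged from 0 to 1 when 1 library was left out. Leaving out 1 library gave 5 to 6 calls for steatotic against normal at Veh, 5 to 6 for CC in normal, 6 to 7 for CC in steatotic and 5 to 7 for steatotic against normal with CC. With the replicate number as a replicate block the counts were 5, 6, 7, 6 and 0. Deviations of replicates with the same number had correlations of -0.004 to 0.060 between groups, over all tested genes with low-count genes included. Such values cannot exclude that libraries with the same number shared a source, which is not given. Counts divided by 4, DESeq2 size factors and a filter of 1 CPM in 2 libraries changed no call count.

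Directions turned only where 1 library was left out and for values that were not called: *Apoe* with CC in steatotic (range -0.75 to 0.13), and the difference between responses of *Abca1* (-0.16 to 0.0124), *Apoe* (-0.32 to 0.57) and *Nr1h2* (-0.0658 to 0.29). The causes were not tested. The calls of *Abca1*, *Abcg1*, *Nr1h3* and *Pltp* in the 4 comparisons between groups held under every setting tried. With 2 libraries a group, differences such as that of *Apoe* between CC and Veh in steatotic (interval -1.21 to 0.72) were not detectable here.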
